A study of Rattus norvegicus with 6 samples.

Results

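The genes described here act at the entry from G1 into S phase, some promoting it and some repressing it. They are the E2F transcription factors E2f1, E2f3, E2f5, E2f7 and E2f8, the E2F partner Tfdp2, the E-type cyclins Ccne1 and Ccne2, their kinase Cdk2, and Cdc25a, the phosphatase that activates that kinase. The list was taken by name and makes up 10 of the 14506 genes measured, each through its probe set of highest mean signal among those with 1 gene symbol. All 10 had such a probe set. Expression was measured on 6 Affymetrix arrays of total RNA from primary rat testis cultures, labelled as Sertoli cells. At each of 2 ages, 9 and 21 days, there were 3 arrays. All cultures were grown in DMEM/F12 with 10% fetal bovine serum, which was renewed after 24 hours. No genotype, strain or agent that differs between the groups is given, and the labels leave unsaid whether the replicates of an age were separate animals or cultures, or pools. P-values therefore measure only the spread between these arrays, which may be technical. Per the labels the younger cells were still proliferating. The stated aim was to find genes that differ between the ages and have roles in proliferation, in the cell cycle or in cell death.

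E2F factors bind DNA as dimers with a DP protein such as the product of Tfdp2. In resting cells pocket proteins of the retinoblastoma family hold them in check, and phosphorylation of these proteins by cyclin-dependent kinases, cyclin E with CDK2 among them, releases the activators E2F1 and E2F3 to switch on replication genes and cyclin E itself. E2F5 acts mainly as a repressor with the pocket proteins, and E2F7 and E2F8 are atypical repressors that bind without a DP partner and are themselves induced in S phase. Sertoli cells, the somatic nurse cells of the seminiferous tubule, divide in the young testis and leave the cell cycle as they mature.

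Several of these genes carry E2F motifs before their own start sites, and the sequences that do are shown because the results below set the motif beside the difference between the ages. The motif was searched on both strands in the 250 bases before the start, as TTTCCCGC, TTTCGCGC, TTTGCCGC or TTTGGCGC, and more loosely with the first T left out, so that each long match also holds a short one. The windows are those of RefSeq for the assembly GRCr8, which held an entry for 6 of the 10 genes. Capitals mark matches, and each sequence runs 5′ to 3′ along the strand of the gene.
E2f3 (chr17:34810166-34810415, plus strand): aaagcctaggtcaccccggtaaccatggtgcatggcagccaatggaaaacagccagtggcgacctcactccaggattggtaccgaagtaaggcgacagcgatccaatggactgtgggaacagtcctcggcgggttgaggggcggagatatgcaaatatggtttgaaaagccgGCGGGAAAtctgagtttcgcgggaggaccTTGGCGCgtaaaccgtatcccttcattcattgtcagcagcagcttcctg
E2f7 (chr7:48036653-48036902, plus strand): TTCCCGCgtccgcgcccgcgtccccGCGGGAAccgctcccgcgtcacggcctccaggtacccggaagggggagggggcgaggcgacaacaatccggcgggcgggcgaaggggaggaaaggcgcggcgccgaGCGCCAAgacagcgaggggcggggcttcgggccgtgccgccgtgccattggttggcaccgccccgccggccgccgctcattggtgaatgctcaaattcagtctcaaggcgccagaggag
Cdk2 (chr7:1721879-1722128, minus strand): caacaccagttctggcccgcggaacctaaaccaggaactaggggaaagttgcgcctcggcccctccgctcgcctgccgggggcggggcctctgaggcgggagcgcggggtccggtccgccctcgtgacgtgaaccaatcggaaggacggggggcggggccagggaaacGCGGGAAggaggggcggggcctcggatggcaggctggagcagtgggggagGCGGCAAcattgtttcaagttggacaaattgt
Cdc25a (chr8:118742798-118743047, plus strand): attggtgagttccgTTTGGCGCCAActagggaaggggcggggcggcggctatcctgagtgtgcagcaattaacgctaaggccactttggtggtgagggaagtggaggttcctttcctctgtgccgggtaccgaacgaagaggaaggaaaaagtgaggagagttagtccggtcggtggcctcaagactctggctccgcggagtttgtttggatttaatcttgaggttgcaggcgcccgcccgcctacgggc
E2f3 had an 8-letter match beginning 78 bases before the start and a 7-letter match at 49. In Cdc25a an 8-letter match began 236 bases before the start and overlapped a 7-letter match on the other strand at 232. Within its window E2f7 had only 7-letter matches, at 250, 225 and 119 bases, and Cdk2 had them at 82 and 32. The E2f7 match at 250 opens the window, so whether it is part of an 8-letter match was not searched. The windows of Ccne1 and Tfdp2 held neither form. Of all 33469 promoter windows in the table, 1.73% held the 8-letter form and 7.59% the 7-letter form.

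Values are log2 signals, so a difference of 1 is a doubling, and signals of different genes are not compared here as amounts of transcript. Array medians ran from 3.78 to 3.87, and the signals of all 10 genes were above them. No detection calls were used, so the limit of detection is unknown. Precision is limited by the 6 arrays, and the SE of the 10 differences had a median of 0.158. The titles number the arrays 1 to 3 at each age, and arrays of the same number resembled each other, so differences are also given within these pairs. Of the markers of the labelled cell type, 5 of 18 lay below the median of every array, as did 5481 of all 14506 genes. The receptor gene Fshr was among these 5, while Ctsl and Clu of the same list were at 9.63 to 10.38 and 8.78 to 10.73. None of the 9 smooth muscle and 8 fibroblast markers lay below the median of every array. Among germ cell markers 9 of 11 did. Since these are bulk samples, fewer cells of a type and less RNA per cell cannot be told apart.

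On average most of the genes of S phase entry were lower at 21 days, but by small amounts and not evenly across the pairs. Mean signal was lower at 21 days for 8 of the 10 and higher for E2f3 and Tfdp2, and the median of the 10 log2 differences was -0.19. Over all genes tested 53.3% were lower, with a median of -0.0093, and among the 7253 genes of higher mean signal, where all 10 lie, 63.2% were lower. None of the 10 passed an adjusted p under 0.05 in limma, with or without the replicate number as a block, and neither did any other gene (0.0% called in either fit). At an unadjusted p under 0.05 in limma there were 3 of 10, E2f1, E2f5 and E2f8, all lower, against 1.52% of all genes lower and 1.45% higher at that level. With the block the count was also 3 of 10, all lower, against 4.45% of all genes lower. The ages did not overlap for 2 of the 10, E2f1 and E2f8, both lower at 21 days, against 2.98% of all genes lower and 2.74% higher without overlap.

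The pairs differed in how many of these genes were lower. In the pair numbered 2 all 10 genes were lower at 21 days, with a median of -0.36, while 49.5% of all genes were lower there. In the pair numbered 3 the count was 9 of 10 with a median of -0.17, against 51.2%, and Tfdp2 was the exception. In the pair numbered 1 it was 4 of 10 with a median of 0.051, against 45.0%. Only E2f1, E2f5, E2f8 and Cdk2 of the 10 were lower in all 3 pairs, as were 14.4% of all genes. The average over the 10 genes was 5.99, 6.24 and 6.16 on the 9-day-old arrays 1 to 3 and 6.01, 5.89 and 6.01 on the 21-day-old arrays, so the ages overlapped through the low 9-day-old replicate 1. That array gave the lowest 9-day value for 6 of the 10 genes, and 9-day-old replicate 2 gave the highest for 6. Without both arrays numbered 2, an alternative added after the values were seen, 7 of 10 were lower with a median of -0.11. Without both arrays numbered 1 it was 9 of 10 with a median of -0.27.

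**Figure D1:**
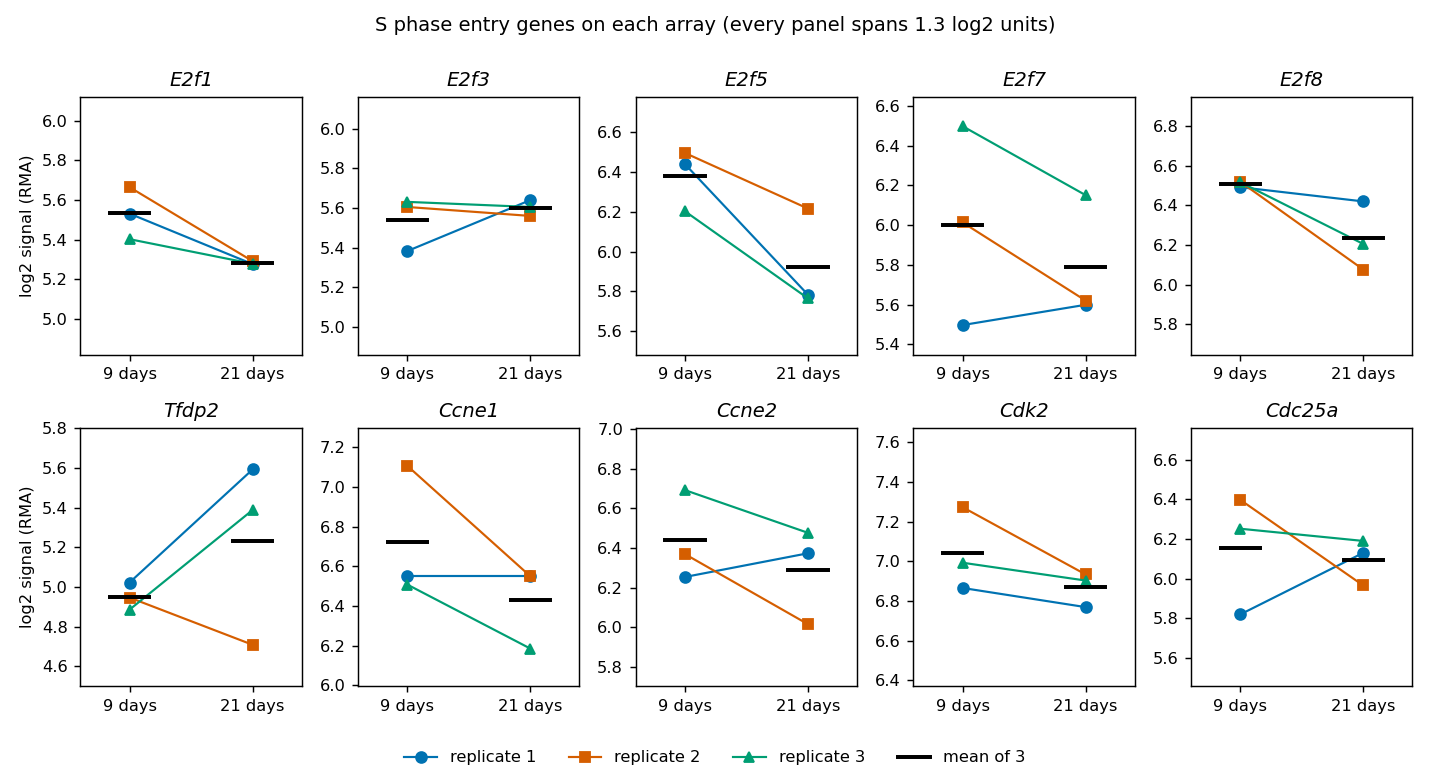
Log2 signal of the 10 genes on each of the 6 arrays (vertical axis) at 9 and 21 days, with lines joining arrays of the same replicate number and black bars for the mean of 3; every panel spans the same range but starts at its own level. E2f1 and E2f8 are the genes whose ages do not overlap, and replicate 1 (circles) runs flat or upward for E2f3, E2f7, Tfdp2, Ccne1, Ccne2 and Cdc25a.

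Of the activators, E2f1 had the most even older group. Its signal was 5.53, 5.66 and 5.40 on the 9-day-old arrays 1 to 3 and at 5.28, 5.29 and 5.28 on the 21-day-old arrays. Every older array lay below every younger one, and the older arrays were nearly equal. The mean went from 5.53 ± 0.13 to 5.28 ± 0.01 (SD, n = 3 each), a log2 difference of -0.25 with a 95% interval of -0.45 to -0.05, or 0.841 of the younger level. An exact two-sided permutation test gave p = 0.1, the smallest that 3 against 3 arrays allow, and limma gave an unadjusted p of 0.0238 and an adjusted p of 1.0.

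E2f3, the other activator, did not share this pattern. Its signals were 5.38, 5.60 and 5.63 at 9 days and 5.64, 5.56 and 5.60 at 21 days. Both ages overlapped, and 9-day-old replicate 1 stood below the other arrays. Its log2 difference was 0.06 ± 0.09 (SE), with an interval of -0.15 to 0.28, and it was -0.016 without that array and 0.11 without 9-day-old replicate 3.

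E2f5 showed the largest difference of the 10, but its 2 probe sets disagreed. The probe set of higher mean gave 6.44, 6.50 and 6.20 at 9 days and 5.78, 6.22 and 5.76 at 21 days. Within pairs it was lower each time, by -0.66, -0.28 and -0.44, although the ages overlapped slightly. The log2 difference was -0.46 ± 0.15 (SE), with an interval of -0.84 to -0.08 and an adjusted p of 1.0 in limma. The other probe set gave 6.02, 5.84 and 5.91 at 9 days and 6.10, 5.73 and 5.74 at 21 days. Here the ages overlapped widely, and the log2 difference was -0.07 ± 0.12 (SE), with an interval of -0.37 to 0.23.

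The numbering of the probe sets also sets these apart. Both are annotated with the same E2f5 transcript. Probe sets of this array are numbered largely in the order of the chromosomes, and for each of the other 9 genes at least 18 of the 20 named probe sets with the nearest numbers belonged to genes of its own chromosome in RefSeq. E2f5 lies on chromosome 2. The probe set with the small difference was numbered between those of Car13 and Lrrcc1, and 18 of its 20 neighbours were genes of chromosome 2. The probe set with the large difference was numbered between those of Myadm and Vom2r27, and all 19 of its neighbours with a known chromosome were genes of chromosome 1. Which transcript that probe set measures was not tested, so the large difference of E2f5 is uncertain as a measure of this gene. With the other probe set the count of 8 lower genes stays and the median becomes -0.16. The count at an unadjusted p under 0.05 in limma goes from 3 to 2, that of genes lower in all 3 pairs from 4 to 3, and that of genes lower in pair 1 from 4 to 3.

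The atypical repressors were both lower on average, E2f8 more evenly than E2f7. E2f8 was at 6.49, 6.52 and 6.52 at 9 days and at 6.42, 6.08 and 6.21 at 21 days. Its younger arrays were nearly equal and all older arrays lay below them, 21-day-old replicate 1 only just. Its mean went from 6.51 ± 0.02 to 6.23 ± 0.17 (SD, n = 3 each), a log2 difference of -0.28 with an interval of -0.52 to -0.03. The exact permutation p was again the smallest possible, 0.1, and limma gave an unadjusted p of 0.0329 and an adjusted p of 1.0.

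E2f7 differed more between replicates than between ages. It was at 5.50, 6.01 and 6.50 at 9 days and at 5.60, 5.62 and 6.15 at 21 days. Replicate 3 was the highest array of both ages, and the ages overlapped. This gave a log2 difference of -0.21 ± 0.29 (SE), with an interval of -0.92 to 0.50. With the replicate number as a block the SE was 0.12 and the interval -0.53 to 0.10. It was 0.035 without 9-day-old replicate 3 and -0.47 without 9-day-old replicate 1. The markers of smooth muscle cells were also highest in the arrays numbered 3, as given below, and their part in the level of E2f7 was not tested.

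Tfdp2, a DP partner of the E2F factors, was the gene with the largest difference upward. It was at 5.02, 4.95 and 4.89 at 9 days and at 5.59, 4.71 and 5.39 at 21 days. Most of the spread lay in the older group, where replicates 1 and 3 were above all younger arrays and replicate 2 was below them. On the log2 scale the ages differed by 0.28 ± 0.23 (SE), with an interval of -0.29 to 0.84, and it was 0.10 without 21-day-old replicate 1 and 0.54 without 21-day-old replicate 2.

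The E-type cyclins were lower on average without a gap between the ages. Ccne1 was at 6.55, 7.11 and 6.51 at 9 days and at 6.55, 6.55 and 6.19 at 21 days. Of these values 3 were equal to all deposited digits, as were at least 2 array values in 37.8% of all genes, and 9-day-old replicate 2 stood above the rest. Its log2 difference was -0.29 ± 0.20 (SE), with an interval of -0.78 to 0.19. It was -0.10 without 9-day-old replicate 2 and -0.17 without 21-day-old replicate 3.

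Ccne2 was at 6.25, 6.37 and 6.69 at 9 days and at 6.37, 6.02 and 6.48 at 21 days. These overlapped, and the pairs differed in sign, with 0.12, -0.35 and -0.22. The log2 difference was -0.15 ± 0.17 (SE), with an interval of -0.56 to 0.26. It was -0.014 without 21-day-old replicate 2 and -0.023 without 9-day-old replicate 3, but -0.24 without 21-day-old replicate 3 or 9-day-old replicate 1.

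Cdk2, the kinase that cyclin E activates, was at 6.87, 7.27 and 6.99 at 9 days and at 6.77, 6.93 and 6.90 at 21 days. It was lower in all 3 pairs, by -0.10, -0.34 and -0.09, and only 9-day-old replicate 1 fell into the range of the older arrays. Its log2 difference was -0.18 ± 0.12 (SE), with an interval of -0.47 to 0.12. It was -0.06 without 9-day-old replicate 2 and -0.26 without 9-day-old replicate 1.

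Cdc25a was at 5.82, 6.40 and 6.25 at 9 days and at 6.13, 5.97 and 6.19 at 21 days. All older arrays lay within the range of the younger ones, and the pairs went both ways, with 0.31, -0.43 and -0.06. The log2 difference was -0.06 ± 0.16 (SE), with an interval of -0.46 to 0.34, and the sign turned without 9-day-old replicate 2 (0.060) or without 21-day-old replicate 2 (0.0038). Without 9-day-old replicate 1 the difference was -0.23. Its relatives with roles at the entry into mitosis, Cdc25b and Cdc25c, were lower in all 3 pairs, as were 14.4% of all genes. Cdc25c differed by -0.32 ± 0.12 (SE), without overlap between the ages, as did 2.98% of all genes downward. Cdc25b differed by -0.40 ± 0.29, or by -0.22 without 9-day-old replicate 1, -0.25 without 21-day-old replicate 2 and -0.67 without 21-day-old replicate 1. Neither passed the test over all genes. The family members E2f2, E2f4, E2f6 and Tfdp1 were not analysed here.

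**Figure D2:**
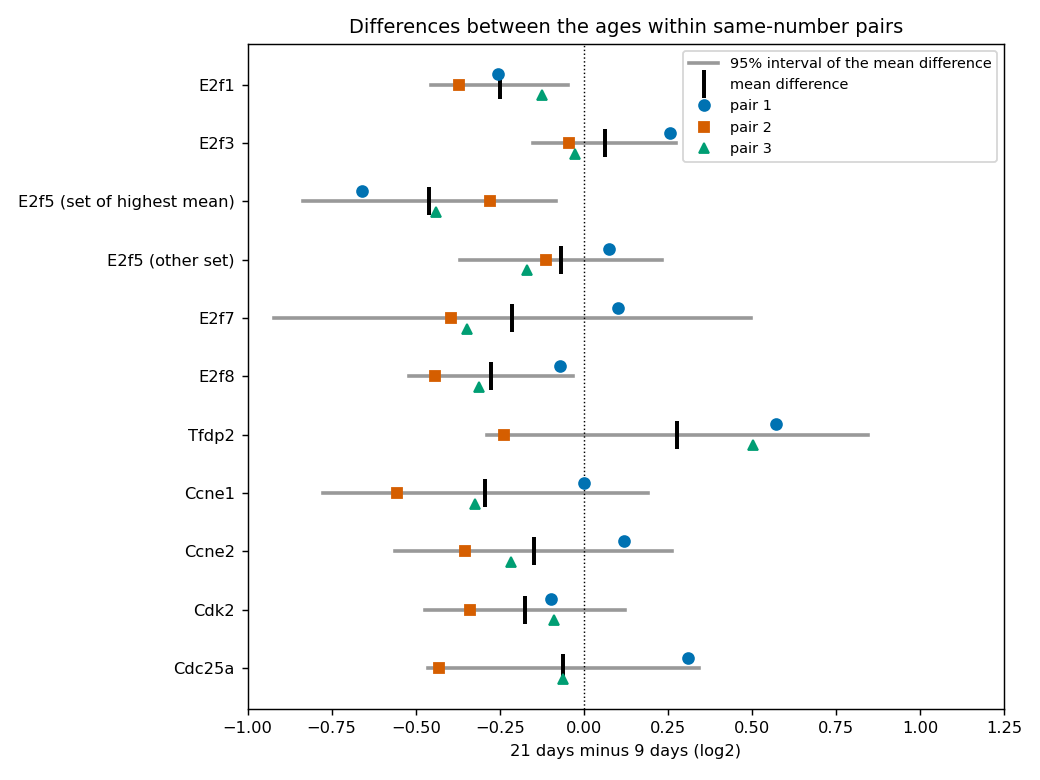
Difference between the ages (21 days minus 9 days, log2, horizontal axis) for each of the 10 genes within the pairs of arrays numbered 1, 2 and 3, with the mean difference (black bar) and its 95% interval from limma without the block (grey line). All squares (pair 2) lie left of 0, and the 2 probe sets of E2f5 differ, with means of -0.46 and -0.07.

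Nearly all genes that E2F factors are known to switch on were lower on average in the older cultures. Outside the lists of origin and DNA synthesis genes given below this held for all 18 other known targets measured, against 53.3% of all genes. Among the 7253 genes of higher mean signal, where most of these targets lie, 63.2% were lower. Their median was -0.25 on the log2 scale, and 8 of them were lower without overlap between the ages, against 2.98% of all genes. Uhrf1, which guides DNA methylation to replicated DNA, was at 6.60, 6.79 and 6.74 at 9 days and at 6.38, 6.44 and 6.23 at 21 days. Its older arrays all lay below its younger ones, and the log2 difference was -0.36 ± 0.09 (SE). The checkpoint kinase gene Chek1 differed by -0.35 ± 0.13, and the Polycomb methyltransferase gene Ezh2 by -0.36 ± 0.15, or -0.21 without 21-day-old replicate 2. Of 24 genes of DNA synthesis and nucleotide supply 23 were lower, with a median of -0.20, and 4 did not overlap.

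Prim1, a subunit of the primase that starts new DNA strands, had a small spread for the size of its difference. It was at 8.27, 8.29 and 8.20 at 9 days and at 7.94, 7.90 and 7.81 at 21 days. Its ages lay well apart, and the log2 difference was -0.37 ± 0.07 (SE). The polymerase gene Pola1 differed by -0.32 ± 0.15, or -0.17 without 21-day-old replicate 2, and the ribonucleotide reductase gene Rrm1 by -0.30 ± 0.12, or -0.19 without 21-day-old replicate 3. Of 21 genes that license and fire replication origins 20 were lower, with a median of -0.16, against 53.3% of all genes lower. All 21 overlapped between the ages, and of all genes only 2.98% were lower and 2.74% higher without overlap. Among them the helicase subunit gene Mcm2 differed by -0.30 ± 0.27, or -0.068 without 9-day-old replicate 2, -0.12 without 21-day-old replicate 3 and -0.50 without 21-day-old replicate 2. The helicase cofactor gene Gins4 differed by -0.30 ± 0.19, or -0.095 without 21-day-old replicate 3 and -0.45 without 21-day-old replicate 1.

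The mean over these 63 replication and target genes was 6.28, 6.39 and 6.34 on the 9-day-old arrays and 6.21, 6.14 and 6.05 on the 21-day-old arrays, without overlap, whereas the mean over the 10 genes of S phase entry overlapped. In the pairs numbered 1, 2 and 3 the medians of the 63 were -0.09, -0.26 and -0.29, with 40, 58 and 57 of them lower. These counts are 63.5%, 92.1% and 90.5% of the 63, against 45.0%, 49.5% and 51.2% of all genes in the same pairs. Pair 1 thus had the smallest share of lower genes in this group, as in the 10 genes and over all genes. Whether the lists differ from each other was not tested. None of the 63 passed an adjusted p under 0.05 in limma, and at an unadjusted p under 0.05 there were 10, all lower, against 1.52% of all genes lower. With the replicate block none passed the adjusted p either, and 23 of the 63 were lower at an unadjusted p in limma, against 4.45% of all genes.

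The genes that act on E2F and cyclin E were mixed. Of 7 pocket proteins and subunits of the DREAM and MuvB complexes, which repress cell cycle genes in resting cells or activate them in dividing cells, 5 were lower, with a median of -0.06. Over all genes 53.3% were lower. The pocket protein gene Rb1 had signals of 5.93, 6.08 and 6.31 in the younger group and 6.13, 5.83 and 6.40 in the older one, and its pairs differed in sign. Its relative Rbl2 had 6.27, 5.99 and 6.08 in the younger group and 6.37, 6.08 and 6.33 in the older one, higher in all 3 pairs but with overlap between the ages. The genes of this list without overlap were those of dividing cells, Foxm1 and Mybl2, and the MuvB subunit Lin54. All 3 were lower, against 2.98% of all genes lower without overlap. Foxm1 differed by -0.41 ± 0.15 (SE), or -0.27 without 9-day-old replicate 3, Mybl2 by -0.14 ± 0.06 and Lin54 by -0.26 ± 0.13, or -0.15 without 9-day-old replicate 3.

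Of 18 regulators of cyclin E and CDK2, from inhibitors to subunits of the ligases that degrade cyclin E, 11 were lower, with a median of -0.05. That is 61.1%, near the 53.3% of all genes. The ages overlapped for all 18, and of all genes only 2.98% were lower and 2.74% higher without overlap. The largest differences were those of Cdk1, -0.50 ± 0.17 (SE), and its cyclin Ccna2, -0.37 ± 0.26, or -0.14 without 21-day-old replicate 2, -0.23 without 9-day-old replicate 1 and -0.555 without 21-day-old replicate 1. None of these passed the test over all genes. Cdk1, Ccna2 and Mybl2 are also E2F targets and count in that list too. The cyclin E ligase subunit Fbxw7 was not analysed here.

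**Figure D3:**
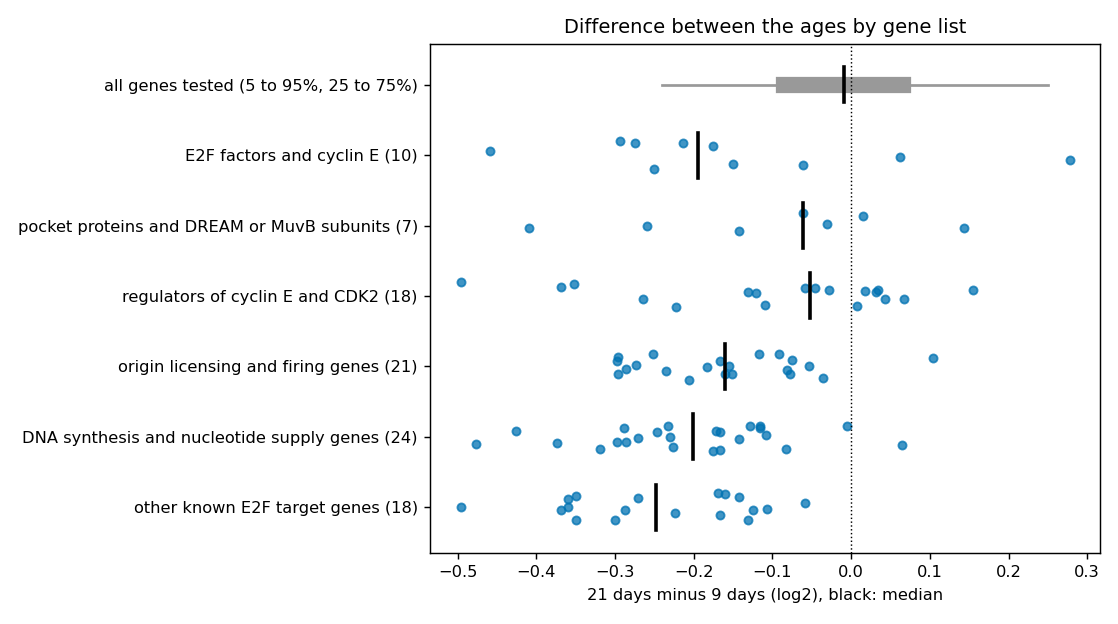
Difference between the ages (21 days minus 9 days, log2, horizontal axis) of each gene in 6 lists, as points with the median as a black bar, beside the spread of all 14506 genes (grey: thin line 5 to 95%, thick line 25 to 75%). The medians of the replication and target lists lie between -0.25 and -0.16 and that of the 10 genes at -0.19, while the regulator and pocket protein lists lie near the median of all genes.

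The difference between the ages was also set beside the E2F motif over all genes, as a description with no test. Of the tested genes 11503 had a single promoter window in RefSeq, and 287 of these (2.5%) held the 8-letter form. Among those 287, 66.2% were lower at 21 days and the median was -0.06 on the log2 scale, against 53.3% and -0.0096 among the 11216 without it. With the 7-letter form, held by 1266 genes, 61.0% were lower, against 52.7% of the 10237 without. The shares with the 8-letter form were 49.8%, 66.2% and 62.7% in the pairs numbered 1, 2 and 3, against 45.0%, 49.5% and 50.9% without it. The difference was thus smallest in pair 1.

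These shares depend on the arrays and on the genes kept. For the 8-letter form the share was 55.7% without both arrays numbered 2, against 52.0% of all genes. It was 75.5% among the genes of higher mean signal, against 63.2% of all such genes. Unlike the shares above, 52.0% and 63.2% include genes without a single promoter window and genes with the motif. Windows with the 8-letter form had a median G and C content of 60.8%, against 56.8% without, and its part in the difference was not tested. The origin licensing genes held the form in 8 of 16 windows, the other E2F targets in 6 of 15, the DNA synthesis genes in 2 of 21 and the 10 genes of S phase entry in 2 of 6, E2f3 and Cdc25a, which had the smallest differences of the 10. A match is a run of letters and does not show that a factor binds there.

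**Figure D4:**
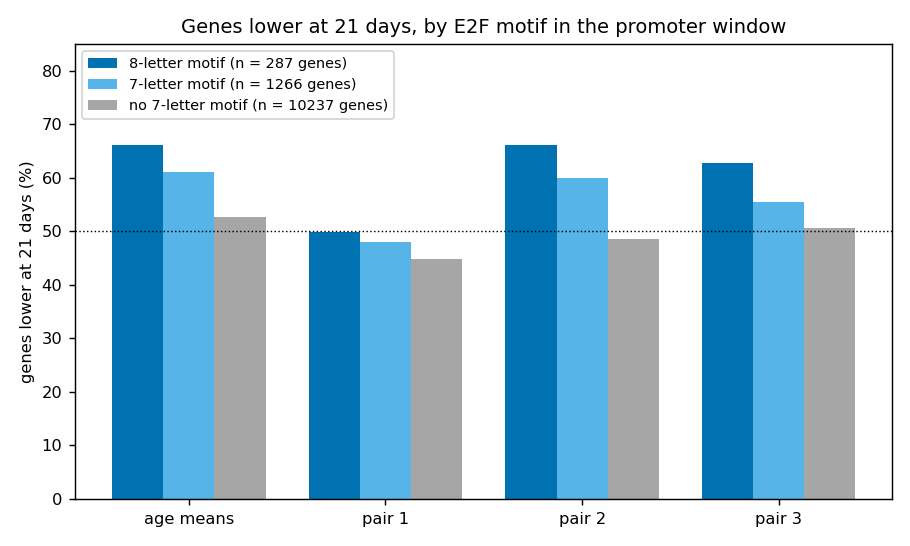
Share of genes lower at 21 days (vertical axis, percent) by E2F motif in the 250 bases before the start, for the means of the ages and for each pair of arrays. Genes with the 8-letter form lie at 66.2% for the means of the ages and at 49.8% in pair 1.

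Markers of other cells differed between the same arrays. Those of peritubular and smooth muscle cells averaged 8.53, 8.69 and 9.97 on the 9-day-old arrays and 8.46, 7.84 and 9.63 on the 21-day-old arrays, and all 9 were lower at 21 days, with a median of -0.35. In pair 2, where all 10 genes of S phase entry were lower, this median was -0.75. It was -0.01 in pair 1 and -0.43 in pair 3. The count of 9 became 3 without 9-day-old replicate 3 and 5 without 21-day-old replicate 2. Fibroblast markers were lower in 7 of 8 cases, with averages of 8.82 to 8.96 at 9 days and 8.41 to 8.94 at 21 days. Their pairs ran in another order than those of the muscle markers, with medians of -0.22, 0.047 and -0.65 in pairs 1, 2 and 3, and only 4 of 8 were lower in pair 2. Among them the growth factor receptor gene Pdgfra differed by -0.73 ± 0.18 (SE), without overlap. Of the muscle genes, the kinase gene Mylk differed by -0.69 ± 0.37, or -0.31 without 9-day-old replicate 3, and the actin gene Actg2 by -0.70 ± 1.02, which was 0.038 without that array and -1.65 without 21-day-old replicate 3.

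Sertoli cell markers were higher in 16 of 18 cases. They averaged 4.85 to 5.02 at 9 days and 5.14, 5.49 and 6.10 on the 21-day-old arrays 1 to 3. Their medians were 0.064, 0.35 and 0.73 in pairs 1, 2 and 3. Without overlap 6 of 18 were higher, against 2.74% of all genes. Of these 6, Amh (3.07 to 3.49) and Cldn11 (2.81 to 3.71) lay below the median of every array, where detection is unknown. The transferrin gene Tf differed by 3.59 ± 0.78 (SE). Germ cell markers averaged 3.10 to 3.23 at 9 days and 3.08, 3.15 and 3.50 on the 21-day-old arrays 1 to 3. On the age means 9 of 11 were higher at 21 days, with a median of 0.06. The pairs were uneven, with medians of -0.036, 0.0 and 0.21 in pairs 1, 2 and 3. In these pairs 7, 5 and 1 of the 11 were lower. The defining genes Ddx4 and Dazl had signals of at most 3.06 on every array. In contrast, Uchl1 of the same list was at 7.68 to 8.43, and Tex101 reached 4.01 on 21-day-old replicate 3. Of Leydig, macrophage and endothelial markers 2 of 6, 5 of 9 and 3 of 7 were lower at 21 days, and 4, 6 and 4 of them lay below the median of every array. The Leydig marker Star did not, with signals of 10.84 to 11.28, and it differed by 0.13 ± 0.15 (SE). The named genes of these lists went both ways. For steroid synthesis Cyp11a1 differed by 0.17 ± 0.08 (SE), without overlap, as did 2.74% of all genes upward, and Cyp17a1 by -0.13 ± 0.13. Both lay below the median of every array, where detection is unknown. The macrophage genes Cd14 and Cd68 differed by 0.24 ± 0.21 and 0.22 ± 0.17, with ranges of 0.043 to 0.39 and 0.024 to 0.34 when single arrays were left out. The endothelial receptor genes Flt1 and Kdr differed by -0.94 ± 0.55 and 0.26 ± 0.17, with ranges of -1.54 to -0.62 and 0.10 to 0.41. The part of these cell types in the differences of the 10 genes was not tested.

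The genes whose pattern over the 6 arrays was most like the mean of the 10 standardised genes were Cand2, Crebl2, Gcn1, Pard6g and Myo15b, with Pearson correlations of 0.984, 0.981, 0.979, 0.977 and 0.975. These rest on 6 arrays, which share replicate numbers, and are the highest of all genes outside the list, so they describe likeness only. Cand2, which belongs to a family of regulators of cullin ligases, had signals of 5.92, 6.24 and 6.09 in the younger group, and its lowest array was 21-day-old replicate 2 at 5.84. As in the mean over the 10 genes, 9-day-old replicate 2 was highest, 21-day-old replicate 2 was lowest and 9-day-old replicate 1 lay among the older arrays.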

How the data were processed

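The deposited log2 values, 29214 probe sets on 6 arrays, are the authors' own. Per the submitters' processing notes the tool was RMA, which corrects background, normalizes arrays by quantiles and summarises probe sets. For its version and settings, nothing is stated in the labels used here. The platform annotation names 1 gene for 15310 probe sets, 15279 of them matched to RefSeq (GRCr8) by Entrez number.

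Ages were compared over all 14506 genes in limma 3.58.1 (R 4.3.3) with lmFit and eBayes, 21 days minus 9 days, with Benjamini-Hochberg adjustment and a threshold of 0.05. The fit was tested on simulated data. Deviations of same-number arrays from the means of their ages correlated at 0.439, 0.549 and 0.673 over genes, above the limit of 0.1, so the numbers in the titles were taken as pairs. The 10 genes and all lists were chosen with earlier results of these data known. Beside the 10 genes, the text names Cdc25b and Cdc25c, up to 3 genes per list by size of difference and lack of overlap, and the 5 most alike in pattern. Of these, most cell type markers are described by their lists only. Rb1, Rbl2, Ddx4, Dazl, Uchl1, Tex101, Fshr, Amh, Cldn11, Ctsl, Clu and Star were named after their values were seen. Alternatives were the replicate block, other scalings, filters, probe set rules, variance models and left-out arrays. Figures used matplotlib 3.10.9.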

Additional observations from a re-analysis of the deposited data

How the results depend on the processing

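Under 18 alternatives no gene of the 10, and no other gene, passed an adjusted p under 0.05 in limma. The replicate block changed no call, with 0 genes called and a lowest adjusted p of 0.132, against 0.685 without it. At an unadjusted p it gave 1122 genes instead of 431, and 3 of the 10, the same count as without it. The count of genes lower at 21 days among the 10 ran from 7 to 9 when single arrays were left out and stayed at 8 under all alternatives that kept the 6 arrays. Scaling turned none of the 10 differences, and the share of all genes lower was 60.6% after centring on the medians and 50.9% after quantile normalization, against 53.3%.

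Differences turned as follows, and the causes were not tested. Leaving out single arrays gave ranges of -0.23 to 0.060 for Cdc25a, -0.016 to 0.11 for E2f3, -0.47 to 0.035 for E2f7, -1.65 to 0.038 for Actg2 and -0.23 to 0.014 for Cyp17a1. Without both arrays numbered 1 E2f3 differed by -0.035 and Cyp17a1 by 0.041. Without both arrays numbered 2 Cdc25a differed by 0.12 and Pard6g by 0.0087. Both pair removals and the other probe set of E2f5 were chosen after seeing the data.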
